A study of Homo sapiens with 8 samples.

Results

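U87 cells, an established human glioblastoma line, were compared after long-term AsiDNA treatment and after DMSO, with no belinostat on either side. The members are the 4 libraries labelled with these treatments, 2 of AsiDNA and 2 of DMSO, out of 8 libraries in the series. AsiDNA is a short double-stranded oligonucleotide, and DMSO is the solvent control. The other 4 libraries came from U87 cells given 1 µM belinostat, a histone deacetylase inhibitor, for 24 h, 2 of them after long-term AsiDNA (called the combination here) and 2 without AsiDNA. All cells grew in DMEM with 10% serum and 1% antibiotics. The labels name 2 kinds of U87 cells, MTU87 and LTAU87, without spelling out the abbreviations, and neither the dose nor the duration of AsiDNA is given in the sources used here. They do not say whether replicates came from separate cultures, so the p-values cover the spread between libraries only, and that spread may be technical. A single cell line was used, so the results describe U87 alone.

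AsiDNA mimics the end of a broken DNA molecule. The kinase DNA-PK, whose Ku subunits attach to broken ends, and the enzyme PARP1 bind such ends and become active, which draws repair factors away from chromosomal breaks. The comparison asks which transcripts differed in cells kept under this agent. EGR1, FOSB and other immediate early genes, which respond to growth factors and stress without new protein synthesis, and CCN1 and CCN2, classic targets of the YAP and TEAD transcription factors, recur in the results below.

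The AsiDNA libraries held 8058956 and 6713621 counts, and the DMSO libraries 9699637 and 9220207 counts, so that 3 counts equal 0.372 and 0.447 CPM in AsiDNA and 0.309 and 0.325 CPM in DMSO. Of 58884 genes, 14741 had enough counts to be tested. CPM values are counts per 1e6 counts of a library, scaled with TMM factors. A value after ± beside a log2 fold change is its standard error. The 2 DMSO libraries stood apart from each other. Among 8142 genes with a mean log2 CPM above 4, the share that differed by over 1.5-fold was 0.184% between the AsiDNA libraries and 11.1% between the DMSO libraries. Each AsiDNA library differed by that much from DMSO replicate 1 in 0.59% and 0.553% of these genes, and from DMSO replicate 2 in 13.8% and 14.1%. DMSO replicate 2 also held more of the nuclear noncoding RNAs MALAT1 and NEAT1, whose joint share of counts was 0.753% and 0.688% in AsiDNA, against 0.911% in DMSO replicate 1 and 2.81% in DMSO replicate 2. Transcripts annotated as sense-intronic took 0.0556% and 0.051% of counts in AsiDNA, against 0.057% in DMSO replicate 1 and 0.113% in DMSO replicate 2. For these reasons the called genes and the main gene lists are also given against each DMSO library alone. A fit with 1 DMSO library assumes that it varies like the other groups, although the DMSO pair differs more than any other pair, so its p-values may be too small.

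Among the markers of the labelled tissue, the astrocyte genes AQP4, FGFR3, S100B and SPARCL1 had no count in any of the 4 libraries, and the astrocyte filament gene GFAP had 0 counts in both AsiDNA libraries, against 3 and 5 counts in the DMSO libraries. Other astrocyte markers were expressed. The summed level of the 15 astrocyte markers was 684 and 665 CPM in AsiDNA, against 647 and 534 CPM in DMSO, mostly from GJA1 and CLU. GJA1 had 332 and 292 CPM in AsiDNA, against 318 and 259 CPM in DMSO. CLU had 195 and 213 CPM in AsiDNA, against 170 and 149 CPM in DMSO. The microglia and macrophage markers AIF1, C1QA, C1QB, C1QC, CD163, P2RY12 and TYROBP and the endothelial markers CDH5 and CLDN5 were at 0 counts in all 4 libraries. These were 7 of 14 microglia and macrophage markers and 2 of 11 endothelial and pericyte markers. The summed level of the microglia and macrophage list was 33.3 and 36.5 CPM in AsiDNA, against 49.5 and 39.7 CPM in DMSO, mostly from CSF1R and TMEM119. That of the endothelial and pericyte list was 124 and 134 CPM in AsiDNA, against 136 and 153 CPM in DMSO, mostly from the pericyte gene PDGFRB. The part of these markers in the results was not tested.

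Long-term AsiDNA left few genes past the test. EGR1, CCN2 and CCN1 fell in AsiDNA against DMSO, and no gene rose. These 3 were 0.0204% of the 14741 genes tested with edgeR's quasi-likelihood test and Benjamini-Hochberg adjustment, at an adjusted p under 0.05. At an unadjusted p under 0.05, 580 genes were higher and 1094 lower. Each of the 3 genes was also called lower against either DMSO library alone, so neither DMSO library alone decides these calls.

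EGR1 (ENSG00000120738, chromosome 5, 138465490 to 138469315, GRCh38), a zinc finger transcription factor induced by growth factors through the serum response factor, had 49.8 and 99.2 CPM in AsiDNA, against 218 and 272 CPM in DMSO. Both AsiDNA libraries lay below both DMSO libraries, and on the log2 scale the AsiDNA pair differed by 0.99 and the DMSO pair by 0.32. The means were 74.5 ± 35 CPM in AsiDNA and 245 ± 38.3 CPM in DMSO (SD, n = 2 each). The log2 fold change was -1.72 ± 0.24 (edgeR, adjusted p = 0.0399). It was -1.57 against DMSO replicate 1 alone and -1.87 against DMSO replicate 2 alone.

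CCN2 (ENSG00000118523, chromosome 6, 131948176 to 131951373), a secreted matrix-associated growth factor also called CTGF, had 13.4 and 14.99 CPM in AsiDNA, against 34.04 and 32.6 CPM in DMSO. Here both pairs were tight and far apart, at 14.2 ± 1.12 CPM in AsiDNA and 33.3 ± 1.05 CPM in DMSO (SD, n = 2 each). Its log2 fold change was -1.23 ± 0.15 (edgeR, adjusted p = 0.017), the lowest adjusted p of all genes, with -1.27 and -1.18 against DMSO replicates 1 and 2 alone.

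CCN1 (ENSG00000142871, chromosome 1, 85580761 to 85583962), also called CYR61, a secreted ligand of integrins from the same family, had 23.4 and 23.7 CPM in AsiDNA, against 48.9 and 53.5 CPM in DMSO. The groups did not overlap, with means of 23.6 ± 0.208 CPM in AsiDNA and 51.2 ± 3.27 CPM in DMSO (SD, n = 2 each). Its log2 fold change was -1.12 ± 0.16 (edgeR, adjusted p = 0.0455), with -1.05 and -1.16 against DMSO replicates 1 and 2 alone.

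The direction of these falls was the same under 20 alternative settings, with log2 fold changes between -2.29 and -1.29 for EGR1, -1.30 and -1.14 for CCN2 and -1.18 and -1.05 for CCN1. The calls were less stable: CCN2 was called in 13 of the 20, EGR1 in 11 and CCN1 in 10, and a fit of the 4 AsiDNA and DMSO libraries alone called 0 genes. Without AsiDNA replicate 1, or without either combination library, which enter the fit through the shared dispersion, none of the 3 was called. Without AsiDNA replicate 2 only EGR1 was called, and without either belinostat library only CCN2.

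**Figure D1:**
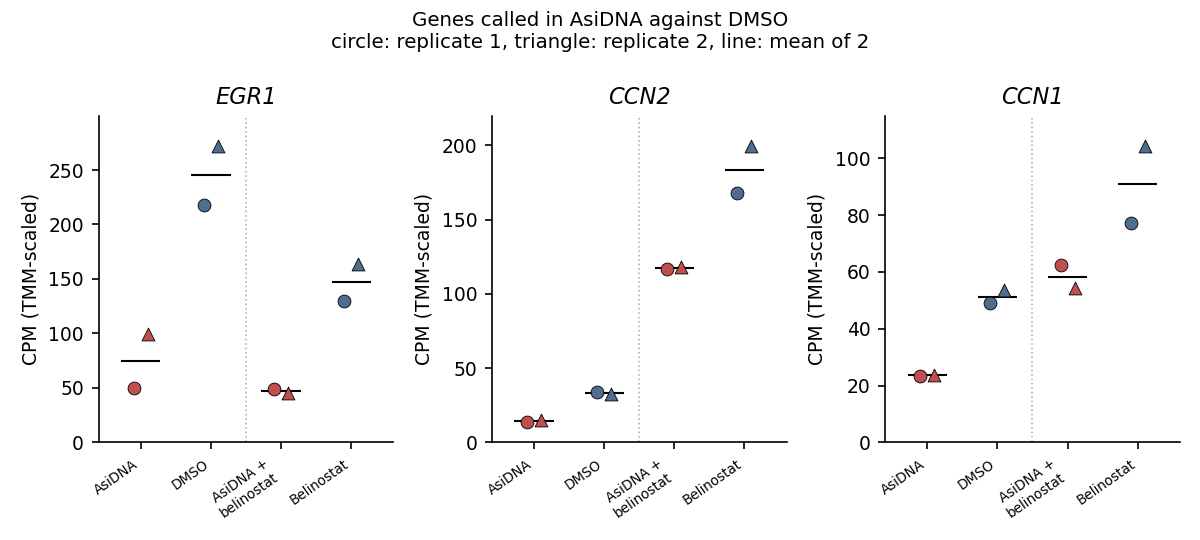
Level of EGR1, CCN2 and CCN1 in each library, in TMM-scaled CPM from 0 on the vertical axis, with AsiDNA left of DMSO and the combination left of belinostat. Points are single libraries and lines are means of 2; in each panel both AsiDNA points lie below both DMSO points, and both combination points below both belinostat points.

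Promoter bases of EGR1 and CCN2 are shown because the elements known to drive these genes can be read in them. CCN1 had no promoter in the set of sequences used. RefSeq sequences of the 250 bases before the start site (GRCh38.p14), 5′ to 3′ on the gene's strand, are printed with CArG boxes (the element bound by serum response factor) in capitals for EGR1, at chr5:138465229-138465478 on the plus strand, and with the TEAD motif GGAATG in capitals for CCN2, at chr6:131951373-131951622 on the minus strand.
EGR1: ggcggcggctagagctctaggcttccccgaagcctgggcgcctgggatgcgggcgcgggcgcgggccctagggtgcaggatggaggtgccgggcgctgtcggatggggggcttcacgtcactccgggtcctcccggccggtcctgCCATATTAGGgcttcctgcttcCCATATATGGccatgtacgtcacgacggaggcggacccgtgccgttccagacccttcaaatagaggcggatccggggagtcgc
CCN2: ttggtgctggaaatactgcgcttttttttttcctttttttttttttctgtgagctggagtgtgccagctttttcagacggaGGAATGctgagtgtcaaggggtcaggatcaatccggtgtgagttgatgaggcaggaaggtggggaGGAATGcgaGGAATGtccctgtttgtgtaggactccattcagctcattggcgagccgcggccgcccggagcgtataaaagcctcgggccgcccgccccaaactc
Within this window EGR1 holds 2 CArG boxes, 105 to 96 and 83 to 74 bases before the start. CCN2 holds the TEAD motif 3 times, at 169 to 164, 104 to 99 and 95 to 90 bases before the start. Of 27305 RefSeq promoters cut to the same 250 bases, 1.14% held a CArG box and 11.9% held GGAATG on either strand. The AP-1 motif TGANTCA was in 6.6%. Of 38 promoters of the genes called against each DMSO library alone, described below, 1 held a CArG box, 6 held GGAATG and 2 held TGANTCA. Whether a motif bears on the falls was not tested. The CArG box was looked for after EGR1 had been called. A match is a description of the letters and not a measured binding site.

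CCN1 and EGR1 belong to the list of immediate early genes, of which 2 of 26 tested members fell and none rose. The list's median log2 fold change was -0.15, against 0.03 over all tested genes, and 14 members had both AsiDNA libraries below both DMSO libraries, a position held by 18.5% of all tested genes. FOSB, a FOS family partner of the AP-1 factor, had 26.4 and 58.2 CPM in AsiDNA, against 78.1 and 133 CPM in DMSO, a log2 fold change of -1.33 ± 0.30 (edgeR, adjusted p = 0.202). NR4A1, an orphan nuclear receptor, had 5.19 and 9.60 CPM in AsiDNA, against 13.4 and 29.9 CPM in DMSO (-1.57 ± 0.36, edgeR, adjusted p = 0.243). The log2 fold change of NR4A1 was -0.89 against DMSO replicate 1 alone, where it was not called, and -2.02 against DMSO replicate 2 alone, where it was. Both genes were lower in each AsiDNA library than in either DMSO library, and neither passed the test with both DMSO libraries. On the log2 scale AsiDNA replicate 2 lay above AsiDNA replicate 1 by 0.99 for EGR1, 1.13 for FOSB and 0.86 for NR4A1, but by 0.02 for CCN1. Among the 8142 genes with a mean log2 CPM above 4, only 0.184% differed by over 1.5-fold between the AsiDNA libraries. FOSB passed against each DMSO library alone (-0.91 and -1.66). FOS, JUN and JUNB, named after their values were seen, did not separate in this way, or not clearly. FOS had 37.8 and 73.6 CPM in AsiDNA, against 71.9 and 66.7 CPM in DMSO, and JUNB had 41.3 and 51.8 CPM in AsiDNA, against 48.8 and 49.3 CPM in DMSO, so that the groups overlapped for both. JUN had 510 and 529 CPM in AsiDNA, against 493 and 412 CPM in DMSO (0.20 ± 0.13, edgeR, adjusted p = 0.524).

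CCN1 and CCN2 were also the 2 members that fell among 26 tested genes of the YAP and TEAD list, whose median of -0.07 lay near that of all genes. AMOTL2, an angiomotin family scaffold that binds YAP, had 77.0 and 76.8 CPM in AsiDNA, against 101 and 111 CPM in DMSO (-0.47 ± 0.12, edgeR, adjusted p = 0.276). The Arf GTPase-activating gene ASAP1 had 91.3 and 80.5 CPM in AsiDNA, against 106 and 128 CPM in DMSO (-0.44 ± 0.14, edgeR, adjusted p = 0.34). The coactivator gene YAP1 had 126 and 127 CPM in AsiDNA, against 134 and 98.7 CPM in DMSO. WWTR1, which encodes the YAP relative TAZ, had 148 and 164 CPM in AsiDNA, against 166 and 129 CPM in DMSO. For both coactivators the AsiDNA levels lay between those of the DMSO libraries. YAP1 and WWTR1 were also named after their values were seen.

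Because the DMSO libraries differ, genes called in the same direction against each of them alone were collected, a choice made after seeing the data. Against DMSO replicate 1 alone, 15 genes were higher and 47 lower, 0.401% of 15471 tested. Against DMSO replicate 2 alone, 2874 were higher and 2081 lower, 31.6% of 15679 tested. Called against each were 10 higher (0.0678%) and 38 lower (0.258%), in all 48 (0.326%) of 14741 genes, and the 3 genes above are among them. These 48 genes share the AsiDNA libraries across both fits, so the agreement is a description and not a second test. Of the 38 lower genes, 31 were higher in DMSO replicate 2 than in DMSO replicate 1, and of the 10 higher genes 0 were.

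**Figure D2:**
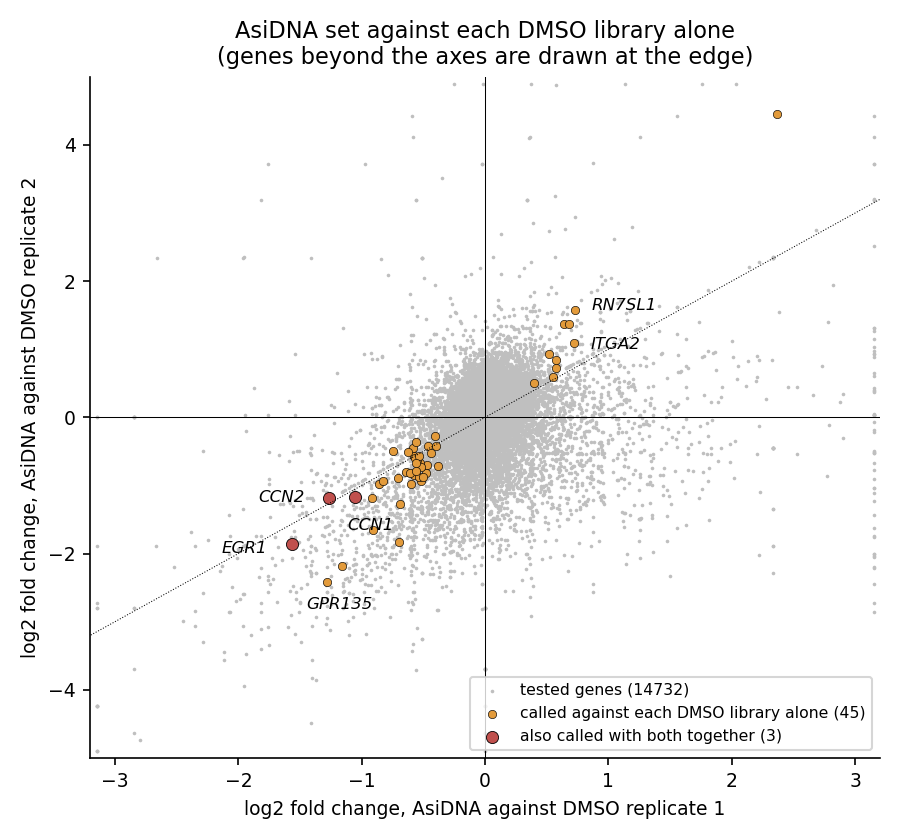
Log2 fold change of AsiDNA against DMSO replicate 1 alone (horizontal) and against DMSO replicate 2 alone (vertical) for 14732 genes tested in all 3 fits; the AsiDNA libraries are the same on both axes. The 48 genes called against each DMSO library lie in the lower left and upper right, with EGR1, CCN2 and CCN1 as the larger red points, and 58 genes beyond the axes are drawn at the edge.

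The genes described next were picked from the 38 lower genes after their values were seen, and no test of a shared function was made. PCBP2, a poly(C)-binding protein, had 86.0 and 92.2 CPM in AsiDNA, against 143 and 218 CPM in DMSO. Its log2 fold change depended on the library it was set against, at -0.69 with DMSO replicate 1 alone and -1.27 with DMSO replicate 2 alone. The splicing cofactor gene SON had 252 and 261 CPM in AsiDNA, against 372 and 478 CPM in DMSO (-0.53 and -0.88). HNRNPD, which binds AU-rich elements, the polymerase II subunit POLR2A and the topoisomerase TOP1 were lower too, with log2 fold changes of -0.75 for HNRNPD, -0.64 for POLR2A and -0.62 for TOP1 over both DMSO libraries. None of these 5 genes passed with both DMSO libraries together (edgeR, adjusted p between 0.11 and 0.274).

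HES1, a Notch target and transcriptional repressor, had 18.5 and 25.5 CPM in AsiDNA, against 41.2 and 50.3 CPM in DMSO (-1.07 ± 0.21, edgeR, adjusted p = 0.167). IL11, a cytokine of the IL-6 family, had 185 and 193 CPM in AsiDNA, against 317 and 270.0 CPM in DMSO (-0.63 ± 0.15, edgeR, adjusted p = 0.249). The neutrophil chemokine gene CXCL8 had 354 and 337 CPM in AsiDNA, against 520 and 478 CPM in DMSO (-0.53 ± 0.14, edgeR, adjusted p = 0.277). In these 3 genes the groups did not overlap. The same holds for all 38 lower genes and follows largely from how they were chosen, so it does not set these 3 apart. IL11 and CXCL8 were not higher in DMSO replicate 2 than in DMSO replicate 1. The interleukin-1 receptor IL1R1 had 119 and 107 CPM in AsiDNA, against 156 and 154 CPM in DMSO, and the matrix protease ADAMTS1 had 276 and 299 CPM in AsiDNA, against 389 and 420 CPM in DMSO. The fibrillar collagen gene COL5A3 had 83.1 and 79.2 CPM in AsiDNA, against 113 and 146 CPM in DMSO.

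The lower set also held proliferation genes: MKI67, the marker of cycling cells, with 551 and 593 CPM in AsiDNA, against 753 and 780 CPM in DMSO, and thymidylate synthase TYMS, with 76.1 and 63.9 CPM in AsiDNA, against 103 and 90.9 CPM in DMSO. Of 42 genes of G2 and mitosis none was called with both DMSO libraries, and the median was 0.10. That median depended on the DMSO library, at -0.01 against DMSO replicate 1 alone and 0.26 against DMSO replicate 2 alone. CDC20, the activator of the anaphase-promoting complex, had 211 and 233 CPM in AsiDNA, against 203 and 152 CPM in DMSO. The 40 genes of DNA replication also gave no call, with a median of 0.01. Lower levels in bulk RNA can stem from fewer cells with a transcript or from less of it per cell, and the 2 cannot be told apart here.

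Among the 10 higher genes, ITGA2 came closest to passing with both DMSO libraries. This integrin subunit, part of a collagen receptor, had 167 and 168 CPM in AsiDNA, against 101 and 79.2 CPM in DMSO (0.89 ± 0.14, edgeR, adjusted p = 0.0582). The growth factor gene HGF, the ligand of the MET receptor, had 80.4 and 87.3 CPM in AsiDNA, against 56.4 and 51.5 CPM in DMSO (0.64 ± 0.14, edgeR, adjusted p = 0.181). Both genes stood clear of the DMSO range, as did all 10 higher genes, largely because of how the set was chosen. ARRDC3, an arrestin family member, had 380 and 317 CPM in AsiDNA, against 244 and 186 CPM in DMSO, and the semaphorin SEMA7A had 299 and 310 CPM in AsiDNA, against 232 and 218 CPM in DMSO. VAT1L and the zinc finger gene ZNF175 were higher by 0.70 and 0.56 on the log2 scale. RN7SL1, RN7SL2 and RN7SL3, the RNA of the signal recognition particle, were higher by 1.08, 0.96 and 0.98, but they are near-identical copies whose reads cannot be assigned with certainty. Together they took 0.26% and 0.292% of counts in AsiDNA, against 0.17% and 0.109% in DMSO. The remaining gene is the noncoding ENSG00000281383 (chromosome 21, 8254592 to 8255514), with 13.4 and 21.5 CPM in AsiDNA, against 3.33 and 0.78 CPM in DMSO. Its level varied widely between replicates with belinostat too, at 54.7 and 16.5 CPM with AsiDNA and belinostat, against 10.4 and 23.7 CPM with belinostat alone.

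**Figure D3:**
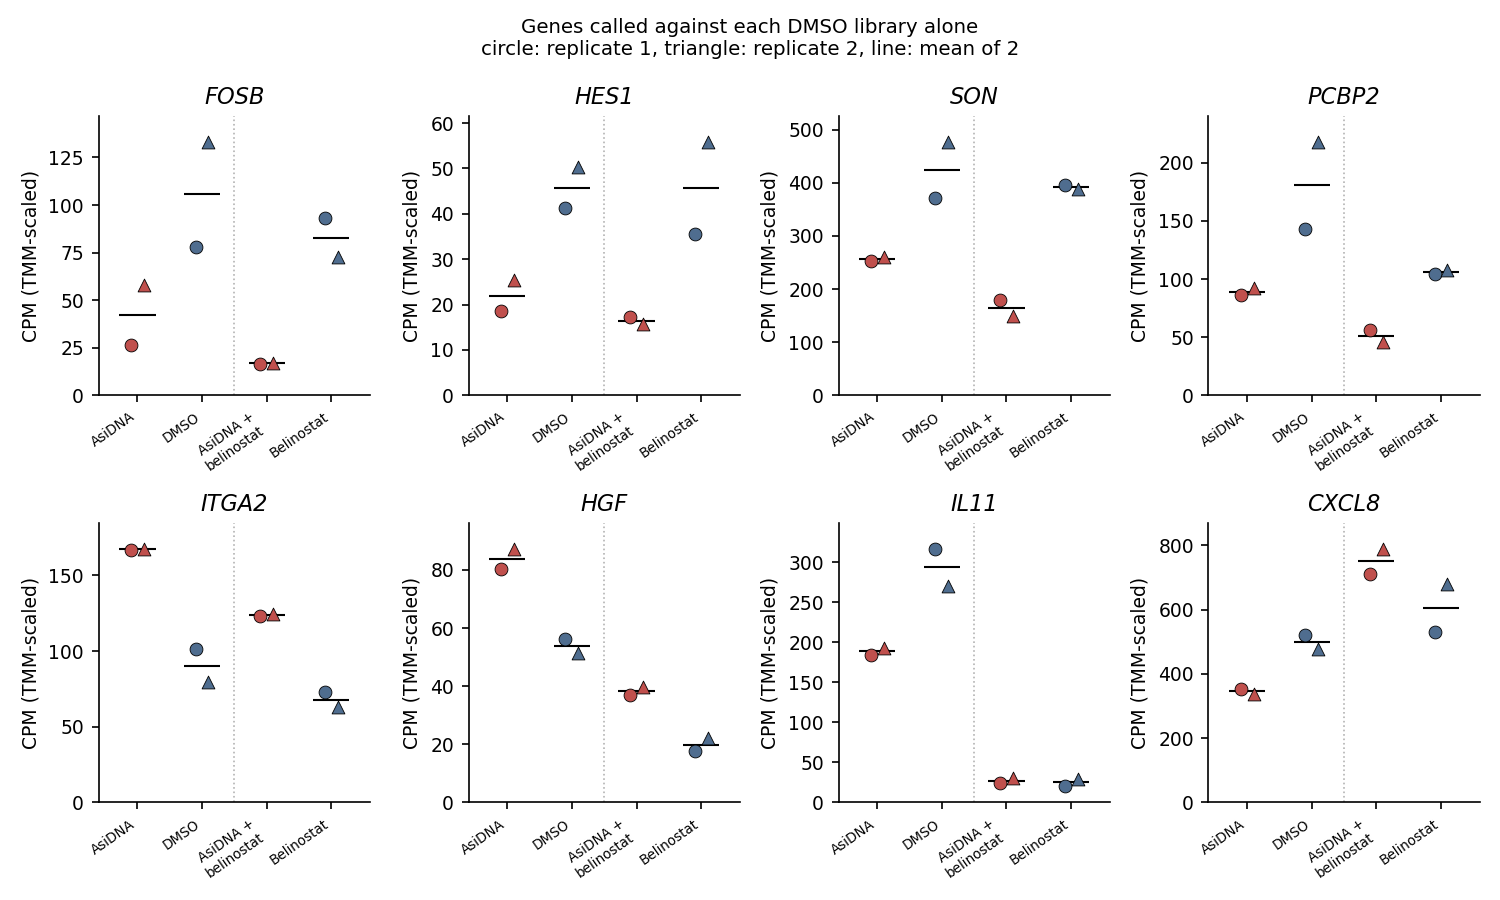
Level of 8 of the 48 genes called against each DMSO library, in TMM-scaled CPM from 0 on the vertical axis, one point per library and a line at the mean of 2. AsiDNA points lie below both DMSO points for FOSB, HES1, SON, PCBP2, IL11 and CXCL8 and above them for ITGA2 and HGF; in PCBP2 the DMSO points lie far apart, and with belinostat IL11 and CXCL8 do not keep the order seen without it.

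The combination was also set against belinostat alone. These groups share no library with AsiDNA and DMSO, although all 8 libraries share the dispersion estimate of the fit, so the 2 comparisons are not fully separate. In the combination against belinostat 22% of tested genes were higher and 21.4% lower (edgeR, adjusted p under 0.05). EGR1 had 49.2 and 45.1 CPM in the combination, against 130 and 164 CPM in belinostat (-1.64, edgeR, adjusted p = 0.000486). CCN2 had 116 and 118 CPM in the combination, against 168 and 200 CPM in belinostat (-0.64, edgeR, adjusted p = 0.00164). CCN1 had 62.2 and 54.2 CPM in the combination, against 77.2 and 104 CPM in belinostat (-0.64, edgeR, adjusted p = 0.00528). All 3 genes thus fell again under AsiDNA, and in each the combination libraries lay below the belinostat libraries. The interaction, which compares the AsiDNA effect with and without belinostat, was called for 0.00678% of genes and for none of these 3, with adjusted p of 0.912 for EGR1, 0.121 for CCN2 and 0.231 for CCN1.

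Of the 38 genes lower against each DMSO library, 28 (73.7%) were also called lower in the combination against belinostat, none was called higher, and 10 were not called. Of the 10 higher genes 7 (70%) were called higher, none lower, and 3 were not called. This share has to be read against that of genes called only with DMSO replicate 2 and not with replicate 1, of which 2167 of 2863 higher genes (75.7%) and 1490 of 1959 lower genes (76.1%) were called in the same direction. The share for the 48 genes is no higher than that. Among all genes called lower against DMSO replicate 1 alone, 28 (59.6%) were called lower in the combination against belinostat and 5 higher. Among all those called higher against DMSO replicate 1 alone, 8 (53.3%) were called higher in the combination and 2 lower. Opposite calls were thus present before the condition on DMSO replicate 2 was added. The sign was the same in 33 of the 38 lower and 9 of the 10 higher genes. FOSB was at -2.31, HES1 at -1.46, PCBP2 at -1.04 and SON at -1.25, and ITGA2 was at 0.87 and HGF at 0.97. IL11 at 0.14, CXCL8 at 0.31, TYMS at 0.25, MT-CYB at 0.38, QSER1 at 0.19 and ARRDC3 at -0.07 had the opposite sign, and none of these 6 was called there.

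**Figure D4:**
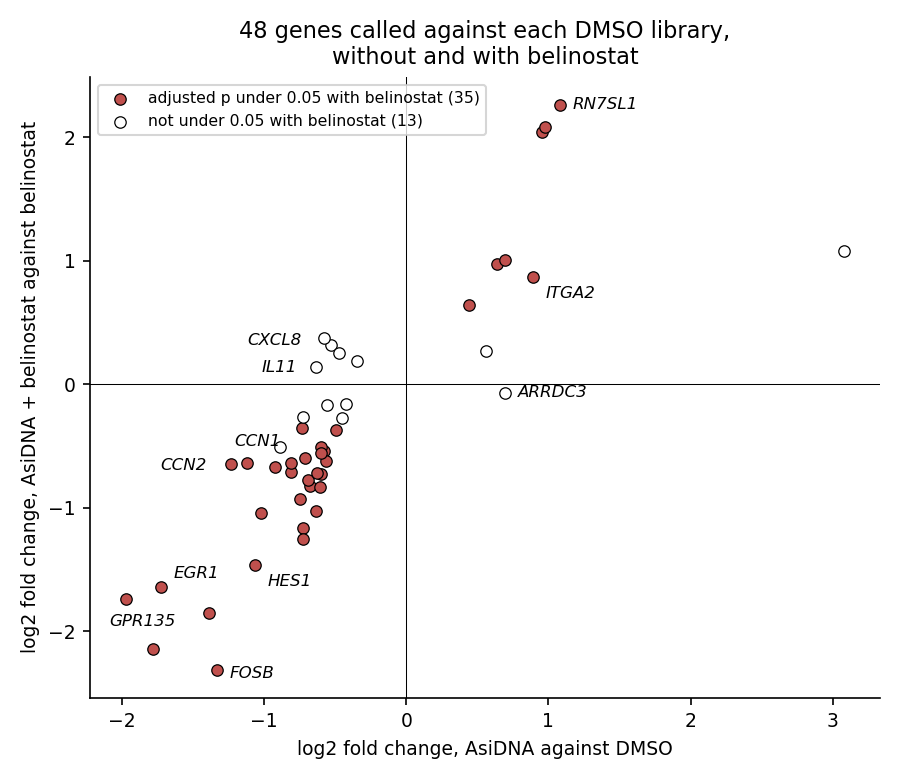
Log2 fold change of the 48 genes called against each DMSO library, AsiDNA against DMSO (horizontal) and the combination against belinostat (vertical), whose groups share no library. Filled points are the 35 genes with an adjusted p under 0.05 in the combination against belinostat and open points are the other 13; EGR1, CCN2 and CCN1 lie at the lower left, and CXCL8, IL11 and ARRDC3 are among 6 genes with opposite signs on the axes.

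DNA repair genes, the pathways that AsiDNA acts on at the protein level, gave no call. Over 7 lists of repair and checkpoint genes, 147 different genes were tested, none was called with both DMSO libraries or against DMSO replicate 1 alone, and the median log2 fold change was 0.03, the same as over all genes. Against DMSO replicate 2 alone 30 were higher and 15 lower, beside the 31.6% of all genes called there. Over both DMSO libraries the log2 fold changes of the 147 genes ran from -1.52 for NHEJ1 to 0.64 for FANCE. NHEJ1 had only 5 and 6 counts in AsiDNA, against 12 and 31 counts in DMSO. UVSSA had the lowest adjusted p of these genes (-0.73 ± 0.20, edgeR, adjusted p = 0.285). PRKDC, the catalytic subunit of DNA-PK, had 1187 and 1152 CPM in AsiDNA, against 1176 and 1038 CPM in DMSO (0.08 ± 0.14, edgeR, adjusted p = 0.829). Its Ku partner XRCC5 had 651 and 632 CPM in AsiDNA, against 621 and 440 CPM in DMSO (0.28 ± 0.15), and XRCC6 had 328 and 339 CPM in AsiDNA, against 332 and 226 CPM in DMSO (0.26 ± 0.16). Against DMSO replicate 1 alone the log2 fold changes of XRCC5 and XRCC6 were 0.05 and 0.01, and against DMSO replicate 2 alone 0.56 and 0.58. PARP1 had 156 and 148 CPM in AsiDNA, against 157 and 128 CPM in DMSO, and PARP2 had 26.2 and 28.7 CPM in AsiDNA, against 26.1 and 24.4 CPM in DMSO.

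In the homologous recombination list 30 genes were tested, none was called and the median was -0.03. BRCA1 had 109 and 104 CPM in AsiDNA, against 114 and 118 CPM in DMSO (-0.13 ± 0.11, edgeR, adjusted p = 0.651). Among 30 tested genes of the p53 list none was called, and the median was 0.16, with 0.08 against DMSO replicate 1 alone and 0.24 against DMSO replicate 2 alone. The cell cycle inhibitor CDKN1A had 122 and 127 CPM in AsiDNA, against 127 and 98.7 CPM in DMSO. The death receptor FAS had 17.02 and 15.9 CPM in AsiDNA, against 11.01 and 10.6 CPM in DMSO (0.60 ± 0.20, edgeR, adjusted p = 0.361), with no overlap between groups.

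Double-stranded DNA in the cytoplasm is sensed by CGAS, which signals through STING1 to interferon genes. Both were at the limit of detection: CGAS had 0 counts in either AsiDNA library, against 0 and 1 in DMSO, and STING1 had 2 and 1 counts in AsiDNA, against 3 and 0 in DMSO. Neither could be tested. Of 34 tested interferon-stimulated genes none was called, and their median was 0.10. IFI44L had 24.0 and 24.6 CPM in AsiDNA, against 14.3 and 18.3 CPM in DMSO (0.57 ± 0.19, edgeR, adjusted p = 0.366). At this depth a change in the sensors themselves was not detectable.

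Of the 55 lists only the immediate early, YAP and TEAD, and matrix glycoprotein lists held a called gene, in each case from EGR1, CCN1 and CCN2. Medians of several other lists moved with the choice of DMSO library. All 49 tested replication-dependent histone genes had a positive log2 fold change with both DMSO libraries, with a median of 0.52 and no call. Their median was 0.16 against DMSO replicate 1 alone, with none called, and 0.99 against DMSO replicate 2 alone, with 48 called higher, where 18.3% of all tested genes were called higher. H2AC4, for example, had 45.8 and 45.8 CPM in AsiDNA, against 35.55 CPM in DMSO replicate 1 and 13.45 CPM in DMSO replicate 2, and H3C12 had 78.4 and 79.5 CPM in AsiDNA, against 83.4 and 28.5 CPM in DMSO. Because histone genes resemble each other closely, the values of single members are uncertain. Ribosomal protein genes showed the same split over 47 members, with medians of 0.22 with both DMSO libraries, 0.06 against replicate 1 and 0.41 against replicate 2, where 43 were called higher. In 37 genes of hypoxia and glycolysis the medians were 0.18, 0.02 and 0.35, and in 29 genes of cholesterol synthesis 0.19, 0.06 and 0.28. MALAT1 and NEAT1, whose shares are given above, moved against these lists: NEAT1 had 3011 and 2785 CPM in AsiDNA, against 3536 CPM in DMSO replicate 1 and 12920.0 CPM in DMSO replicate 2. The part of nuclear RNA or RNA quality in these differences was not tested.

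**Figure D5:**
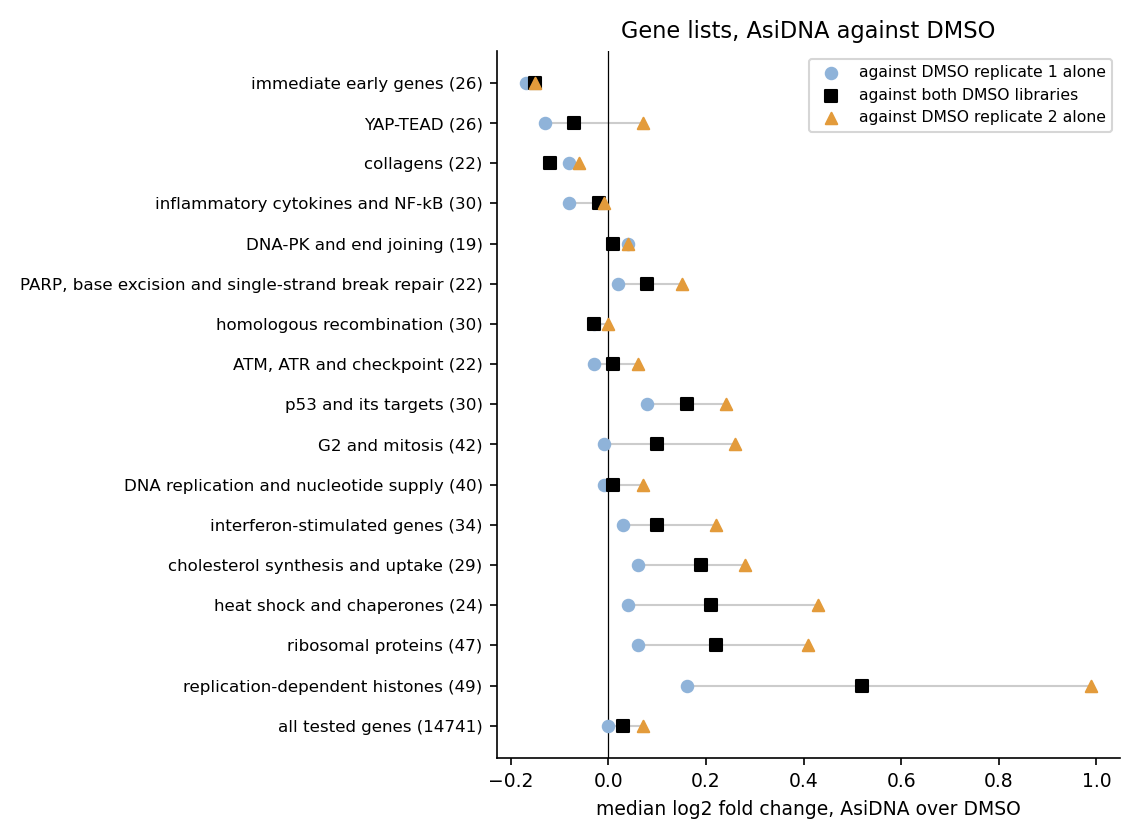
Median log2 fold change of AsiDNA over DMSO for 16 gene lists and all tested genes, with the number of tested genes in parentheses: circles against DMSO replicate 1 alone, squares against both libraries and triangles against DMSO replicate 2 alone. The histone, heat shock and ribosomal protein lists move furthest of those shown between the DMSO libraries, while the repair lists and the immediate early list stay within a narrow range.

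Metallothionein MT1X, which binds zinc and copper, had 34.3 and 32.7 CPM in AsiDNA, against 21.8 and 16.6 CPM in DMSO (0.81 ± 0.19, edgeR, adjusted p = 0.268), and none of the 12 tested members of its list was called. The list's median was 0.03 against DMSO replicate 1 alone and 0.52 against DMSO replicate 2 alone. None of 22 tested collagens was called; the median was -0.12, and COL3A1 had 1.57 and 1.46 CPM in AsiDNA, against 4.04 and 3.51 CPM in DMSO. Deacetylase genes, the targets of belinostat, were not called either; HDAC1 had 78.1 and 73.0 CPM in AsiDNA, against 65.0 and 60.1 CPM in DMSO (0.27 ± 0.12, edgeR, adjusted p = 0.421). HDAC2, HDAC3 and HDAC6 lay between -0.18 and 0.13 on the log2 scale. Over the 17 tested deacetylases and sirtuins log2 fold changes ran from -1.23 to 0.29. The lowest was that of HDAC10, which had 3.38 and 3.35 CPM in AsiDNA, against 4.34 and 11.4 CPM in DMSO. The median of this list was 0.02 against DMSO replicate 1 alone and -0.16 against DMSO replicate 2 alone.

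CDC42BPG, a kinase that acts below CDC42, was the only named gene with at most 3 counts in one group and at least 50 in the other. It had 2 and 0 counts in AsiDNA, against 10 and 41 counts in DMSO. The depth-corrected ratio of AsiDNA over DMSO was 0.0502 with an exact 95% interval of 0.00592 to 0.191 that covers counting error only, and most of the DMSO counts came from DMSO replicate 2.

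Counted by position alone, both AsiDNA libraries lay above both DMSO libraries in 21% of all tested genes and below them in 18.5%. With a gap of at least 1.5-fold the shares were 0.38% and 1.52%. Among the 10962 genes with a mean log2 CPM of at least 2, such a gap was found for 12 genes above and 22 below, so large separations between these groups were few among expressed genes. The proapoptotic BH3-only gene BCL2L11 was one, with 3.74 and 3.64 CPM in AsiDNA, against 6.57 and 6.04 CPM in DMSO (-0.77, edgeR, adjusted p = 0.366). ACTA2, the smooth muscle actin gene, was another in the opposite direction, with 9.30 and 8.73 CPM in AsiDNA, against 5.25 and 3.996 CPM in DMSO (0.96, edgeR, adjusted p = 0.321).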

How the data were processed

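Total RNA was isolated with a Roche kit and made into stranded libraries after Ribo-Zero Gold depletion with an Illumina TruSeq kit, per the labels' protocols. The authors deposited raw read counts per gene. Reads were trimmed with cutadapt 1.16, aligned to GRCh38 with STAR 2.7.0 and counted with featureCounts 1.6.3 of Subread, per the submitters' processing notes. Neither annotation release nor strand setting is stated there, so antisense and overlapping genes are uncertain.

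From the deposited counts, 58876 of 58884 identifiers were named and 58611 placed with GENCODE release 29; the others held 0.0029% of counts and 28036 identifiers had none. Genes were filtered with filterByExpr and scaled with TMM in edgeR 4.0.16 (R 4.3.3). All 8 libraries were fitted with 1 coefficient per group (common dispersion 0.014, 4 residual degrees of freedom) and tested with the quasi-likelihood F-test, adjusted with Benjamini-Hochberg over all tested genes. The standard error is the absolute log2 fold change over the square root of F, and log2 CPM used a prior count of 2. Fits without DMSO replicate 2 or 1 held 7 libraries, with dispersions of 0.00365 in both. DESeq2 1.42.0 and limma 3.58.1 were used for alternatives. The steps were tested on simulated data.

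Named genes were the largest rises and falls among genes called in all 3 fits, up to 4 members per list with the lowest adjusted p, a fixed set (among them PRKDC, PARP1 and CGAS), near-silent genes and genes with the largest difference between DMSO replicates. Outside this rule, with values already known, fall the genes called against each DMSO library, those with a 1.5-fold gap, and AAAS. The members and the 55 gene lists were chosen with earlier results of these data known. Promoter sequences are from RefSeq, where 38 of the 48 genes had one. A few genes are not reported here. Intervals and floors cover counting error only.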

Additional observations from a re-analysis of the deposited data

Results flagged for a closer look

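AAAS, which encodes the nuclear pore protein ALADIN (chromosome 12, 53307456 to 53324864), was the only gene whose AsiDNA effect differed with belinostat by the interaction test, 0.00678% of the tested genes. The interaction was -1.42 on the log2 scale (edgeR, adjusted p = 0.044). AAAS had 38.6 and 35.1 CPM in AsiDNA, against 33.2 and 38.2 CPM in DMSO (0.05), and 46.5 and 43.5 CPM in the combination, against 117 and 117 CPM in belinostat (-1.38). The count of called interactions depends on the DMSO library used: leaving out DMSO replicate 2 gave 5358 and leaving out DMSO replicate 1 gave 1020. AAAS was singled out after its values were seen.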

How the results depend on the processing

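The count of genes called in AsiDNA against DMSO was 3, all lower. RLE factors and a 2-fold limit also gave 3. It was 1 with library size only, 0 with only the 4 libraries compared, at an adjusted p under 0.01 and with glmTreat. DESeq2 called 33 (8 higher, 25 lower), no filter on low counts 520 (42 and 478), limma voom with sample quality weights 30 (6 and 24), and 48 were called against each DMSO library alone. A filter of 1 CPM and protein-coding genes only gave 1 higher gene each. The voom weights and the list of 48 were chosen after seeing the data, as were the fits without each belinostat or combination library. DESeq2 shared 26 of its calls with the 48 and voom 19, and both shared the 3. Leaving out 1 library gave 0 to 4955 calls in all, 0 to 2874 higher and 0 to 2081 lower; the lowest count was without AsiDNA replicate 1 or either combination library, and the highest without DMSO replicate 1. With 1 library left in a group, that library is assumed to vary like the other groups. The combination against belinostat had 6398 calls, 3804 at an adjusted p under 0.01, 2285 with a 2-fold limit, 1479 with glmTreat and 3142 to 8477 without 1 library. The interaction had 1 call, 10 with RLE factors, 157 with library size only, 649 with DESeq2, 1549 without a filter, 351 with a filter of 1 CPM, 3 for protein-coding genes, 1255 with voom, 0 at an adjusted p under 0.01 and with glmTreat, and 0 to 5358 without 1 library. The cause of these differences was not tested. The median of all genes was 0.028 with TMM, 0.036 with RLE and -0.028 with library size only. No called result changed sign under these settings. Of the values of single genes, 189 gained a call and 26 lost one. The lost calls were all those of CCN1 (10), EGR1 (9) and CCN2 (7).

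Whether the replicate numbers pair the samples is not known, and the main fit used no pairing. Deviations of same-numbered AsiDNA and DMSO libraries correlated at 0.014 over 8142 genes, and at -0.37 to 0.234 in the other pairs of groups. Each group gives only a single difference between its replicates, so these correlations cannot decide whether same-numbered libraries were handled together. With the replicate block 5 genes were called (1 higher, 4 lower), and the interaction had 19 calls.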
